A study of Mus musculus with 36 samples.

Results

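The genes described here are 31 listed genes of the unfolded protein response and the stress response that shares its ATF4 branch, followed in mouse duodenal organoids that received pulses of a Notch pathway inhibitor. The genes were chosen by name, not by a measured value, though earlier results of these data were known. The count table has 34197 genes and holds 30 of the 31. Ddit3 was not analysed here. All 30 had enough counts to be among the 11462 tested genes. By role they fall into 11 chaperones and cofactors of the endoplasmic reticulum (ER) lumen, 4 disulfide isomerases, 5 genes of ER-associated degradation, 5 stress sensors and transcription factors, and ATF4 with 5 of its targets, of which Ddit3 is the gene not analysed.

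Organoids are cultures of intestinal crypt cells that hold stem cells beside enterocytes and secretory cells. They came from the duodenum of C57BL/6 mice over 8 weeks old, males or virgin females, and were kept in ENR medium in a microfluidic chip at a flow of 200 µl/h. One arm received DMSO, the solvent. The other 3 arms received DAPT, a gamma-secretase inhibitor that stops the cleavage of Notch receptors, in pulses with a period of 90 min at 1.38 µM, 130 min at 2 µM or 170 min at 2.6 µM, where the labels also name 2 µM. The study asked whether entraining Notch oscillations shifts cell type composition. Each arm was harvested after 24, 48 or 72 h, with 3 replicates of 20 to 50 organoids per combination, which gives 12 groups and 36 libraries of polyadenylated RNA. Cells were not enriched for a type. Dose differed with period, and the last passage was 3 days before a 24 h experiment, 2 days before one of 48 h and 1 day before one of 72 h. A period therefore cannot be told apart from its dose, nor a duration from the time since passage. The sources name neither pulses of DMSO nor the culture or animal behind each replicate, and the p-values reflect only how far these samples differed among themselves.

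Secretory and membrane proteins fold in the ER with the help of chaperones and disulfide isomerases, and proteins that fail to fold are extracted and degraded. Unfolded protein in the ER activates 3 sensors. IRE1 splices Xbp1 mRNA, ATF6 is cut to release a transcription factor, and PERK slows translation while favouring that of ATF4. XBP1 and ATF6 raise chaperone and degradation genes, and ATF4 raises genes of amino acid supply and of recovery or death under stress. In the intestine, goblet and Paneth cells secrete large amounts of protein and carry a second IRE1 gene, Ern2.

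The libraries held 482741 to 1447330 counts each (median 958749). Levels are given as CPM, the counts of a gene scaled to a common library size after TMM normalization. Mean totals were lower with DMSO (859263, SD 211770, 9 libraries) and 130 min pulses (855825, SD 150659) than with 90 min (1058610, SD 200370) and 170 min pulses (1093670, SD 201182). The 3 lowest totals were DMSO 24 h replicate 1 (482741), 130 min 72 h replicate 1 (610977) and 130 min 24 h replicate 3 (656157). All 7 epithelial markers were detected, with sums of 1641 to 2476 CPM. The sums of markers for other lineages were at most 5.36 CPM for 6 fibroblast markers, 8.37 CPM for 4 endothelial markers and 13.6 CPM for the 4 immune markers in the table. The sum of 9 enteroendocrine markers ran from 22.3 to 1365 CPM between libraries. Bulk RNA cannot tell fewer cells of a type from less RNA per cell.

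Many genes of this response share short promoter elements. The ER stress response element (ERSE) is CCAAT, any 9 bases and CCACG, the site that ATF6 and XBP1 bind together with NF-Y. RefSeq start sites (GRCm38.p6) gave a promoter of 250 bases before to 50 after the start for 26 of the 30 genes, all but Manf, Hyou1, Ern2 and Atf6. On both strands, 9 of these 26 (34.6%) hold an ERSE, against 37 of all 27025 promoters (0.137%). The Hspa5 promoter, from chr2:34771840-34772089 on the + strand, is printed to its start site because Hspa5 is the reference gene of the response. Below it stand the ERSE sites of the 8 other genes, with 12 bases on each side. Capitals mark the 5 letters at each end of the element, which in some promoters lies on the opposite strand.
Hspa5: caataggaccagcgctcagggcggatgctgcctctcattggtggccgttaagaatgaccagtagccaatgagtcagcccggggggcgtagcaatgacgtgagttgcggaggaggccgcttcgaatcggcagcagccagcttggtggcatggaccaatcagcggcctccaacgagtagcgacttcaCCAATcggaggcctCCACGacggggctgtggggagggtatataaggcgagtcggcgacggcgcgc
Hsp90b1, chr10:86705521-86705668, - strand: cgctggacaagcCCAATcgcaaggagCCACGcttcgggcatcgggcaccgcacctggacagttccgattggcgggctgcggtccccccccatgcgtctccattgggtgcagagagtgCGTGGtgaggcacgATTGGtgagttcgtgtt
Calr, chr8:84847063-84847105, - strand: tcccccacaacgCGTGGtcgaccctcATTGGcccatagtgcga
Canx, chr11:50325788-50325830, - strand: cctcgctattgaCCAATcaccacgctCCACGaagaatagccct
Dnajc3, chr14:118937815-118937857, + strand: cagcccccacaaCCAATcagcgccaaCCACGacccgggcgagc
Creld2, chr15:88819508-88819550, + strand: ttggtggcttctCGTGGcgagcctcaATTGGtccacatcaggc
Pdia6, chr12:17266479-17266521, + strand: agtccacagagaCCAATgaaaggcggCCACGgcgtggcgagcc
Syvn1, chr19:6046520-6046562, + strand: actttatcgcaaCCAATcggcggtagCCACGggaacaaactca
Derl3, chr10:75893230-75893272, + strand: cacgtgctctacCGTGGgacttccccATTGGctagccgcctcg

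Counted from the start site, the element begins at -65 in Hspa5, -44 in Syvn1, -98 in Pdia6, -105 in Dnajc3, -126 in Creld2, -145 in Canx, -156 in Derl3 and -162 in Calr. Hsp90b1 holds 2 elements, at -212 and -107. The shorter ERSE-II, ATTGG, any 1 base and CCACG, is in 2 of the 26 promoters (7.69%, against 0.0444% of all), Herpud1 and Dnajb11. The core of the XBP1 element, TGACGTG, is in Hspa5 alone among them (3.85%, against 2.22% of all). The C/EBP and ATF response element (CARE), TGATG, any 1 base and AA, which ATF4 binds with a C/EBP partner, is in 4 (15.4%, against 4.51%), namely Trib3, Asns, Chac1 and Herpud1. Herpud1, which carries elements of both kinds, is shown with the CARE sites of Asns and Chac1, again with 12 bases on each side and the fixed letters in capitals. All motifs were searched on both strands, and a match describes the letters only.
Herpud1 ERSE-II, chr8:94386365-94386399, + strand: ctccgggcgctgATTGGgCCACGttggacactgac
Herpud1 CARE, chr8:94386305-94386336, + strand: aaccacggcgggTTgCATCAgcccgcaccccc
Asns CARE, chr6:7693213-7693244, - strand: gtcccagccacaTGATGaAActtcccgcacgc
Chac1 CARE, chr2:119351037-119351068, + strand: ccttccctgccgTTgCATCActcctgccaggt

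No member passed an adjusted p of 0.05 (edgeR quasi-likelihood test, Benjamini-Hochberg over 11462 genes) in any comparison of treatments, periods or durations, or in the treatment by time interaction. DESeq2 also called 0 members in each. In the interaction 0 members had an unadjusted p under 0.05, against 2.37% of all tested genes. Of all tested genes, 0% passed with edgeR in each period against DMSO and between periods, and 0.157% passed at 72 against 24 h. With 0 members called, the groups are described below by levels, by differences with their standard errors (SE), and by the counts at an unadjusted p under 0.05. What did vary across the libraries, and past the threshold, was the level of 16 of 30 members with the library total, beside 15.9% of all tested genes. Of these members 15 were called lower and lay at 100 CPM or more, where 41.5% of all tested genes were called lower.

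**Figure D1:**
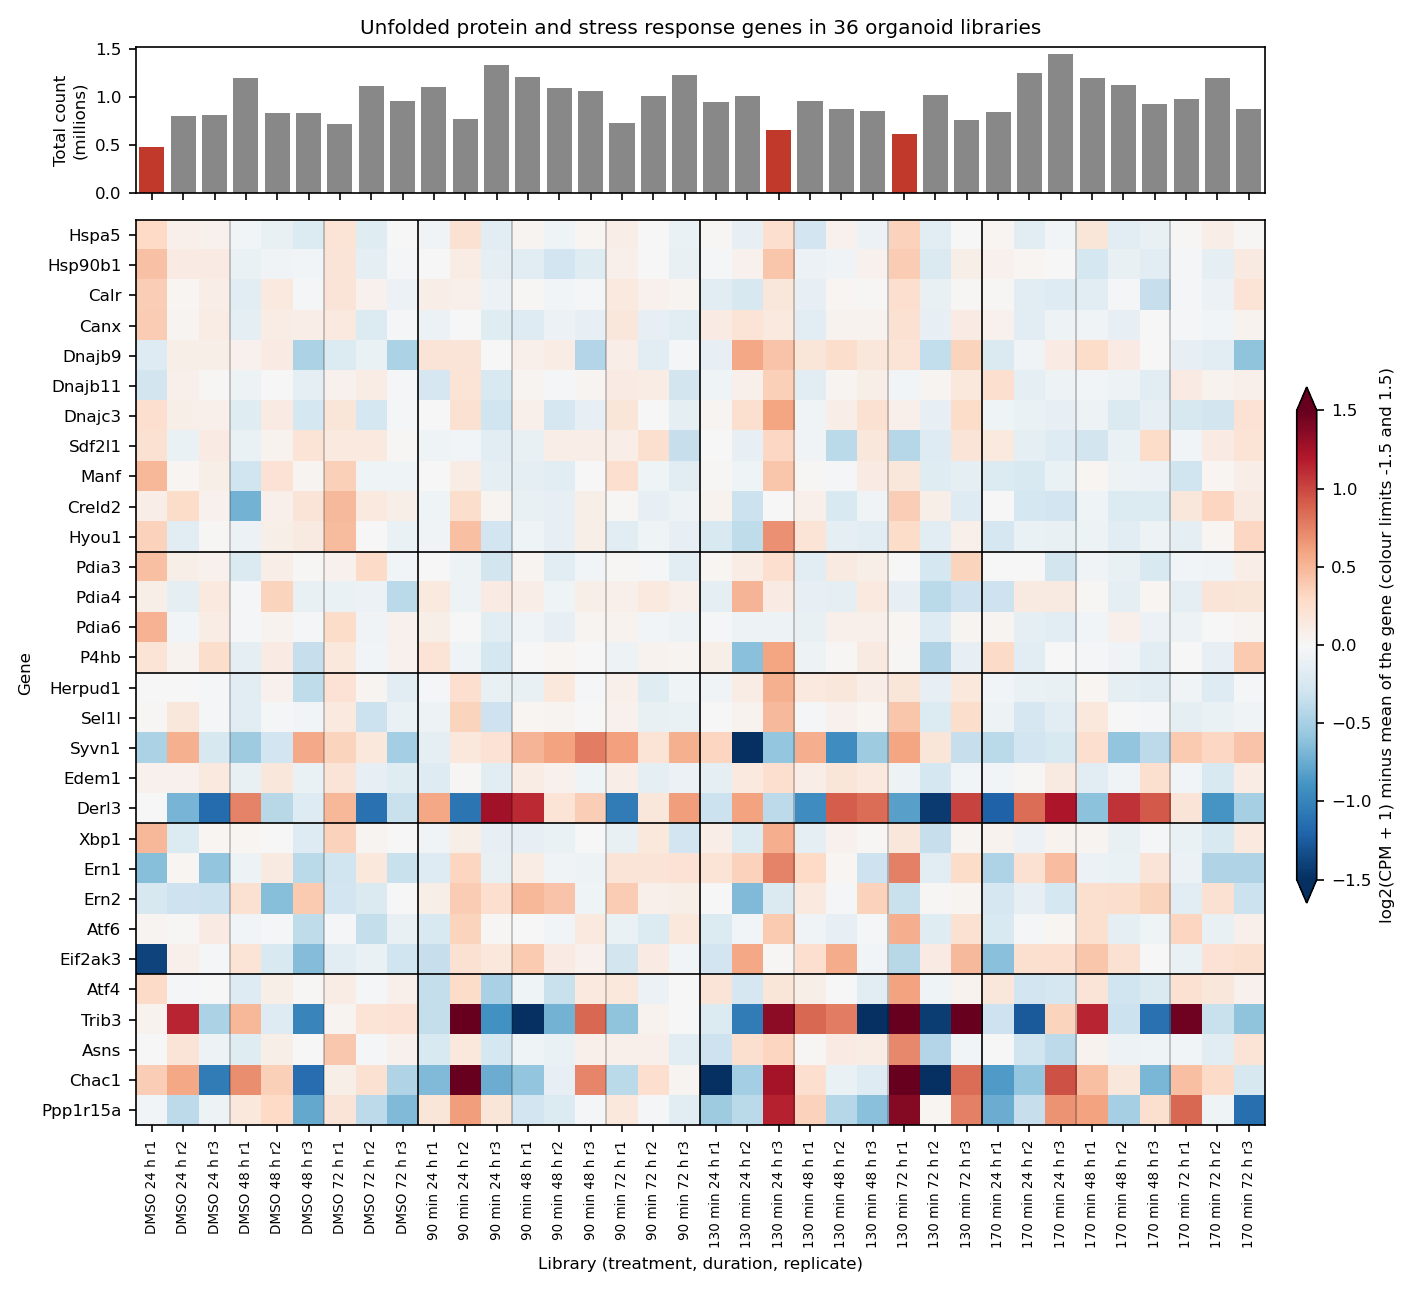
Top, total count of each of the 36 libraries, with the 3 lowest totals in red. Bottom, log2(CPM + 1) of each of the 30 genes minus the mean of that gene, in the same libraries. Libraries are ordered by treatment, duration and replicate, with thin lines between roles. Red cells gather in the columns of the 3 lowest totals. There 23 of 30 genes have their highest level, beside 27.8% of all tested genes and 64.1% of those at 100 CPM or more.

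Hspa5 encodes BiP, the main ER chaperone, which also binds the sensors and keeps them inactive. Its level was 270.1 to 383.8 CPM with DMSO (median 309.8, 9 libraries), 276 to 366 CPM at 90 min (median 313), 256 to 396 CPM at 130 min (median 313) and 276 to 352 CPM at 170 min (median 314). The 4 arms overlapped over nearly their whole range. On the log2 scale Hspa5 differed from DMSO by -0.010 (SE 0.08) at 90 min, -0.0052 (SE 0.08) at 130 min and -0.026 (SE 0.08) at 170 min, with adjusted p from 0.942 to 1.00 in edgeR. By duration, 48 h differed from 24 h by -0.10 (SE 0.07) and 72 h from 24 h by -0.0049 (SE 0.07).

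Library by library, Hspa5 was at 383.8, 328.3 and 325.4 CPM in DMSO replicates 1 to 3 at 24 h, at 303.5, 287.4 and 270.1 CPM at 48 h, and at 358.8, 274.9 and 309.8 CPM at 72 h. With 130 min pulses it was at 314.9, 286.9 and 370.5 CPM at 24 h, at 255.5, 325.7 and 292.8 CPM at 48 h, and at 395.9, 277.2 and 312.7 CPM at 72 h. The 2 highest levels of all 36 libraries, 395.9 and 383.8 CPM, were in the libraries with the second lowest and the lowest total.

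The other ER lumen chaperones moved within similarly narrow ranges. Hsp90b1, the ER form of HSP90, was at 165 to 247 CPM with DMSO (median 180) and at 149 to 196 (median 168), 157 to 243 (median 190) and 152 to 199 CPM (median 178) at 90, 130 and 170 min. Calr and Canx, the lectin chaperones calreticulin and calnexin, had medians of 319 and 347 CPM with DMSO, 314 and 298 CPM at 90 min, 309 and 354 CPM at 130 min, and 288 and 315 CPM at 170 min. Manf, a small secreted ER stress factor, was at 304 to 527 CPM with DMSO (median 383), and its medians at 90, 130 and 170 min were 356, 376 and 350 CPM. In each of these 4 genes every pulsed arm overlapped the DMSO arm.

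Dnajb9, Dnajb11 and Dnajc3 are J-domain cofactors of BiP. Dnajb9 was at 57.1 to 86.7 CPM with DMSO (median 73.8), 58.5 to 91.2 CPM at 90 min (median 83.5), 61.1 to 119 CPM at 130 min (median 91.5) and 52.1 to 96.3 CPM at 170 min (median 76.3). In the 130 min arm 7 of 9 libraries lay at 89.6 CPM or more, above every DMSO library, and the arms still overlapped. Dnajc3, which also inhibits PERK, had medians of 195, 185, 199 and 170 CPM in the order DMSO, 90, 130 and 170 min, and its highest library, 280.0 CPM, was 130 min 24 h replicate 3. Dnajb11, Sdf2l1, Creld2 and Hyou1, the last a large nucleotide exchange partner of BiP, stayed between 80.2 and 185 CPM across all 36 libraries.

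The 4 disulfide isomerases were Pdia3, Pdia4, Pdia6 and P4hb. Pdia6 was at 373 to 555 CPM with DMSO (median 399) and had medians of 374, 377 and 373 CPM at 90, 130 and 170 min. The 555 CPM belonged to replicate 1 of DMSO at 24 h, where the total was lowest. Pdia3, the partner of calreticulin and calnexin, had a DMSO median of 163 CPM and medians of 151, 165 and 151 CPM with pulses. P4hb had the widest range of the isomerases, 199 to 464 CPM, with both ends in the 130 min arm. Pdia4 ran from 59.1 to 112 CPM.

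In ER-associated degradation, Herpud1 and Sel1l are parts of the ligase complex around SYVN1, Edem1 acts on misfolded glycoproteins and Derl3 belongs to the derlin channel family. Herpud1 was at 104 to 157 CPM with DMSO (median 134), 119 to 161 CPM at 90 min (median 132), 124 to 196 CPM at 130 min (median 150) and 118 to 137 CPM at 170 min (median 126). Its highest library, 196.2 CPM, was 130 min 24 h replicate 3. Sel1l had medians of 143, 147, 152 and 138 CPM in the same order. Edem1 ran from 127 to 183 CPM, and Derl3, the member with the fewest counts, from 1.94 to 18.1 CPM. Syvn1 had medians of 19.2 CPM with DMSO, 33.2 CPM at 90 min, 17.8 CPM at 130 min and 19.5 CPM at 170 min, over a range of 6.06 to 39.9 CPM.

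Among the sensors, Ern1 encodes the widely expressed IRE1 alpha and Ern2 the IRE1 beta of mucus-secreting epithelium. Ern1 with DMSO was at 32.4, 51.9 and 33.3 CPM at 24 h, 48.3, 55.8 and 38.1 CPM at 48 h, and 41.0, 56.9 and 40.2 CPM at 72 h. With 130 min pulses it was at 58.9, 64.7 and 85.5 CPM at 24 h, 62.6, 52.0 and 40.6 CPM at 48 h, and 86.2, 45.6 and 61.7 CPM at 72 h. At 24 h all 3 libraries of the 130 min arm lay above all 3 of the DMSO arm, and at 48 and 72 h the arms overlapped. The 90 min arm was at 44.2 to 63.6 CPM and the 170 min arm at 36.5 to 70.5 CPM.

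Ern2 was at 39.3, 37.6 and 37.2 CPM at 24 h with DMSO, 54.8, 29.7 and 61.9 CPM at 48 h, and 38.1, 40.0 and 46.5 CPM at 72 h. With 90 min pulses the levels were 49.6, 60.9 and 55.7 CPM at 24 h, 66.5, 63.4 and 44.6 CPM at 48 h, and 61.2, 49.4 and 49.7 CPM at 72 h. At 24 and 72 h each 90 min library was above each DMSO library of that duration. The 130 and 170 min arms were at 29.3 to 59.8 and 37.1 to 59.4 CPM. The sum of 10 goblet markers, the cells that use Ern2, was 2922 to 4125 CPM with DMSO and 2910 to 4290 CPM at 90 min, and all 10 were detected. At 48 h it was 4145, 3845 and 4012 CPM at 90 min, above the 3140, 3591 and 2922 CPM with DMSO. At 72 h it was 4290, 3928 and 4263 CPM against 3737, 3253 and 4125 CPM, which overlapped. At 24 h it was 3368, 4278 and 2910 CPM against 3389, 3937 and 3381 CPM, which also overlapped. The Ern2 difference at 90 min, 0.38 (SE 0.12) on the log2 scale, was 0.33 (SE 0.13) with the goblet marker level in the model.

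Xbp1, whose mRNA IRE1 splices, was at 188 to 308 CPM with DMSO (median 222), and its medians at 90, 130 and 170 min were 203, 224 and 214 CPM. Counts per gene do not separate spliced from unspliced Xbp1. The 2 highest Xbp1 levels, 316.9 and 307.5 CPM, were in 130 min 24 h replicate 3 and DMSO 24 h replicate 1, and the next was 275.3 CPM. Atf6 ran from 65.4 to 125 CPM. Eif2ak3, the PERK gene, was at 13.9 to 44.2 CPM with DMSO (median 33.7), 29.8 to 50.3 CPM at 90 min (median 41.5), 28.2 to 57.6 CPM at 130 min (median 41.7) and 24.4 to 51.1 CPM at 170 min (median 44.7). The 13.9 CPM rests on 6 counts (exact Poisson 95% interval 5.09 to 30.2 CPM, counting error only) in DMSO 24 h replicate 1, and the next DMSO library was at 23.8 CPM.

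In the ATF4 group, Trib3 and Chac1 had wide ranges inside every arm. Trib3, a pseudokinase that restrains ATF4, ran from 9.52 to 45.4 CPM with DMSO (median 20.8), 5.67 to 77.2 CPM at 90 min (median 15.3), 2.39 to 125 CPM at 130 min (median 34.6) and 7.78 to 56.7 CPM at 170 min (median 15.8). Chac1, an enzyme that degrades glutathione, ran from 10.7 to 40.9 CPM with DMSO (median 29.4), 14.5 to 79.9 CPM at 90 min (median 22.7), 6.43 to 118 CPM at 130 min (median 23.1) and 13.4 to 49.0 CPM at 170 min (median 28.1). The range was widest in the 130 min arm for both genes. Ppp1r15a, which brings translation back by removing the PERK phosphate from eIF2 alpha, ran from 8.11 to 51.0 CPM over all libraries.

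Atf4 mRNA itself and Asns, asparagine synthetase, varied less. Atf4 was at 235 to 326 CPM with DMSO (median 271), 191 to 324 CPM at 90 min (median 255), 224 to 408 CPM at 130 min (median 277) and 217 to 313 CPM at 170 min (median 280). Asns was at 103 to 155 CPM with DMSO (median 118), with medians of 113, 127 and 112 CPM at 90, 130 and 170 min. ATF4 is mainly regulated by translation, which mRNA counts do not measure.

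One library carried the highest level of all 5 measured genes of the ATF4 group. In 130 min 72 h replicate 1, Trib3 was at 125 CPM (71 counts, exact Poisson 95% interval 97.6 to 158), against a median of 17.3 CPM in the other 35 libraries and 77.2 CPM in the next highest. Chac1 was at 118 CPM (67 counts, interval 91.4 to 150), against a median of 25.7 and a next highest of 79.9 CPM. Ppp1r15a was at 51.0 CPM (29 counts, interval 34.2 to 73.3), against 18.5 and 43.6 CPM. The intervals cover counting error only. Atf4 there was at 408 CPM and Asns at 193.5 CPM, which are 1.51 and 1.66 times the medians of the others. Hspa5 was at 396 CPM, 1.27 times the median, and Sdf2l1 at 93.3 CPM, its lowest level of all.

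The other replicates of the same group did not share these levels. In replicates 2 and 3 of 130 min at 72 h, Trib3 was at 6.79 and 65.8 CPM and Chac1 at 6.79 and 45.3 CPM. Of 24 tested genes on a wider ATF4 list, 15 also had their highest level in replicate 1, among them the stress transcription factor Atf3 at 125 CPM (median of all libraries 39.6), Nupr1 at 252 CPM (median 81.2), the lipoprotein receptor Vldlr at 179 CPM (median 47.4) and the amino acid transporter chain Slc3a2 at 574 CPM (median 312). Cebpb, Ddit4, Slc7a5, Phgdh, Aldh18a1, Pycr1, Gdf15, Cth and Cbs did not. Of 13 cytosolic aminoacyl-tRNA synthetases, 10 had their highest level there. Over all tested genes, 6.12% were highest in this library, and 12.7% of those at 100 CPM or more. This library was singled out after its values were seen, and as 1 library it has no test.

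That library had the second lowest total, 610977. Its enteroendocrine marker sum was 31.7 CPM, the second lowest of 36, its Paneth sum 1381 CPM, the third lowest, and its tuft sum 148 CPM, the highest. Their part in the ATF4 levels was not tested. The next highest levels of Trib3 and Chac1, 77.2 and 79.9 CPM, were in 90 min 24 h replicate 2. The next highest Ppp1r15a, 43.6 CPM, was in 130 min 24 h replicate 3, which had Trib3 at 52.0 and Chac1 at 60.4 CPM, an enteroendocrine sum of 1058 CPM and the highest enterocyte marker sum, 4874 CPM.

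**Figure D2:**
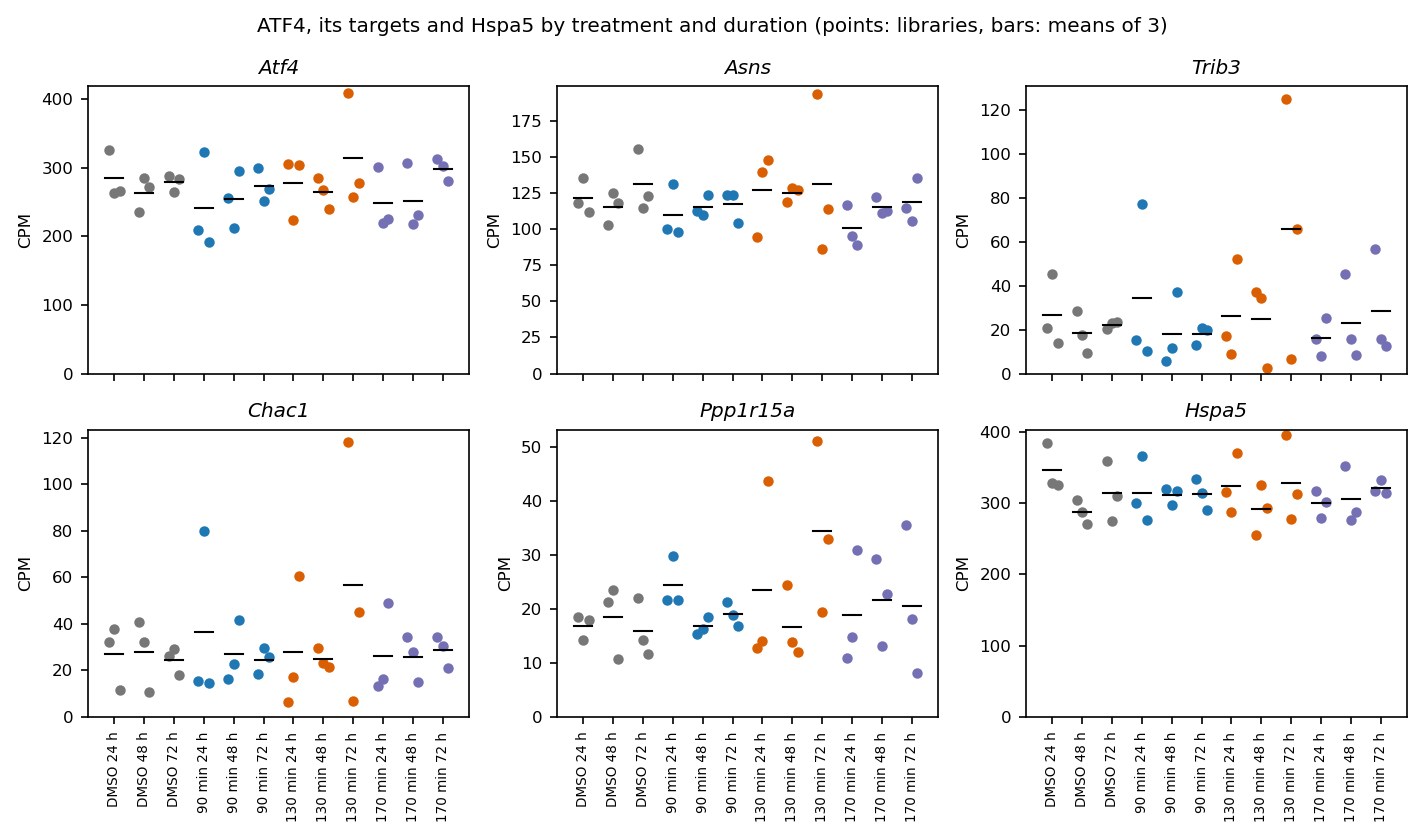
CPM of Atf4, Asns, Trib3, Chac1, Ppp1r15a and Hspa5 in each library (points) by treatment and duration, with horizontal bars at the mean of 3 replicates. All 6 genes have their highest point in the 130 min 72 h group, where the same library reaches 125 CPM for Trib3 and 118 CPM for Chac1 while its partners are lower.

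For pulses of 90 min, the question was which members differed from DMSO when the 3 durations were averaged. With 0 called, 3 of 30 members had an unadjusted p under 0.05, against 7.92% of all tested genes. They were Ern2 at 0.38 (SE 0.12), Canx at -0.14 (SE 0.07) and Pdia3 at -0.17 (SE 0.08), each with an adjusted p of 0.627 in edgeR. Estimates were above 0 for 12 members and below for 18, with a median of -0.04, and the median of all tested genes was 0.02. The signs differed between roles that also differ in abundance. Of the 11 chaperones 1 was above DMSO and 10 below, with a median of -0.09, while 4 of 5 sensors and factors were above, with a median of 0.26. Over all 36 libraries, every chaperone but Dnajb9 had a median above 100 CPM. Ern1, Ern2, Atf6 and Eif2ak3 had medians of 50.4, 47.3, 83.6 and 40.1 CPM. The parts of abundance and role in these signs were not tested.

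For pulses of 130 min, 4 of 30 members had an unadjusted p under 0.05, against 5.49% of all, and all 4 were above DMSO. They were Ern1 at 0.45 (SE 0.14, adjusted p = 0.663), Dnajb9 at 0.29 (SE 0.11, 0.762), Eif2ak3 at 0.39 (SE 0.17, 0.837) and Herpud1 at 0.18 (SE 0.08, 0.848) in edgeR. The median over members was 0.03, with 18 above and 12 below, and the median of all genes was -0.0043. The 4 isomerases were all below DMSO. The 5 ATF4 genes were all above it with a median of 0.28, but without 130 min 72 h replicate 1 there were 2 above and 3 below, with a median of -0.03. Without that library 13 of the 30 members were above and 17 below (median -0.02). Without the 3 libraries of lowest total, of which 2 are in this arm, 12 members were above and 18 below, and Ern1 was at 0.29 (SE 0.14).

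For pulses of 170 min, 5 of 30 had an unadjusted p under 0.05, against 8.64% of all. Calr at -0.16 (SE 0.07), Pdia3 at -0.16 (SE 0.08), Pdia6 at -0.14 (SE 0.07) and Manf at -0.18 (SE 0.09) were below DMSO, and Eif2ak3 at 0.33 (SE 0.16) above, with adjusted p from 0.556 to 0.575 in edgeR. The median was -0.04, with 10 members above and 20 below, beside 0.01 for all genes. The 3 comparisons share the DMSO libraries. Eif2ak3 was above DMSO in each arm, by 0.33 (SE 0.14) over the 3 arms together, with an adjusted p of 0.706 in edgeR. In that pooled comparison 3 of 30 members had an unadjusted p under 0.05, against 6.67% of all tested genes, the others being Pdia6 at -0.13 (SE 0.05) and Ern1 at 0.28 (SE 0.12).

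These signs moved with the library total. The 90 and 170 min arms had higher mean totals than the DMSO arm, and with log2 library total as a covariate the members above DMSO went from 12 to 25 at 90 min (median 0.08) and from 10 to 24 at 170 min (median 0.06). At 130 min, where the mean total was near that of DMSO, 18 members were above in either fit (median 0.03), and those with an unadjusted p under 0.05 went from 4 to 7, of which 6 were above and 1 below. The share of all tested genes at such a p with the covariate is not given here. In each case 0 members were called. Scaling by the library totals alone, without TMM, gave 17 above and 13 below at 90 min and 15 of each at 170 min.

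**Figure D3:**
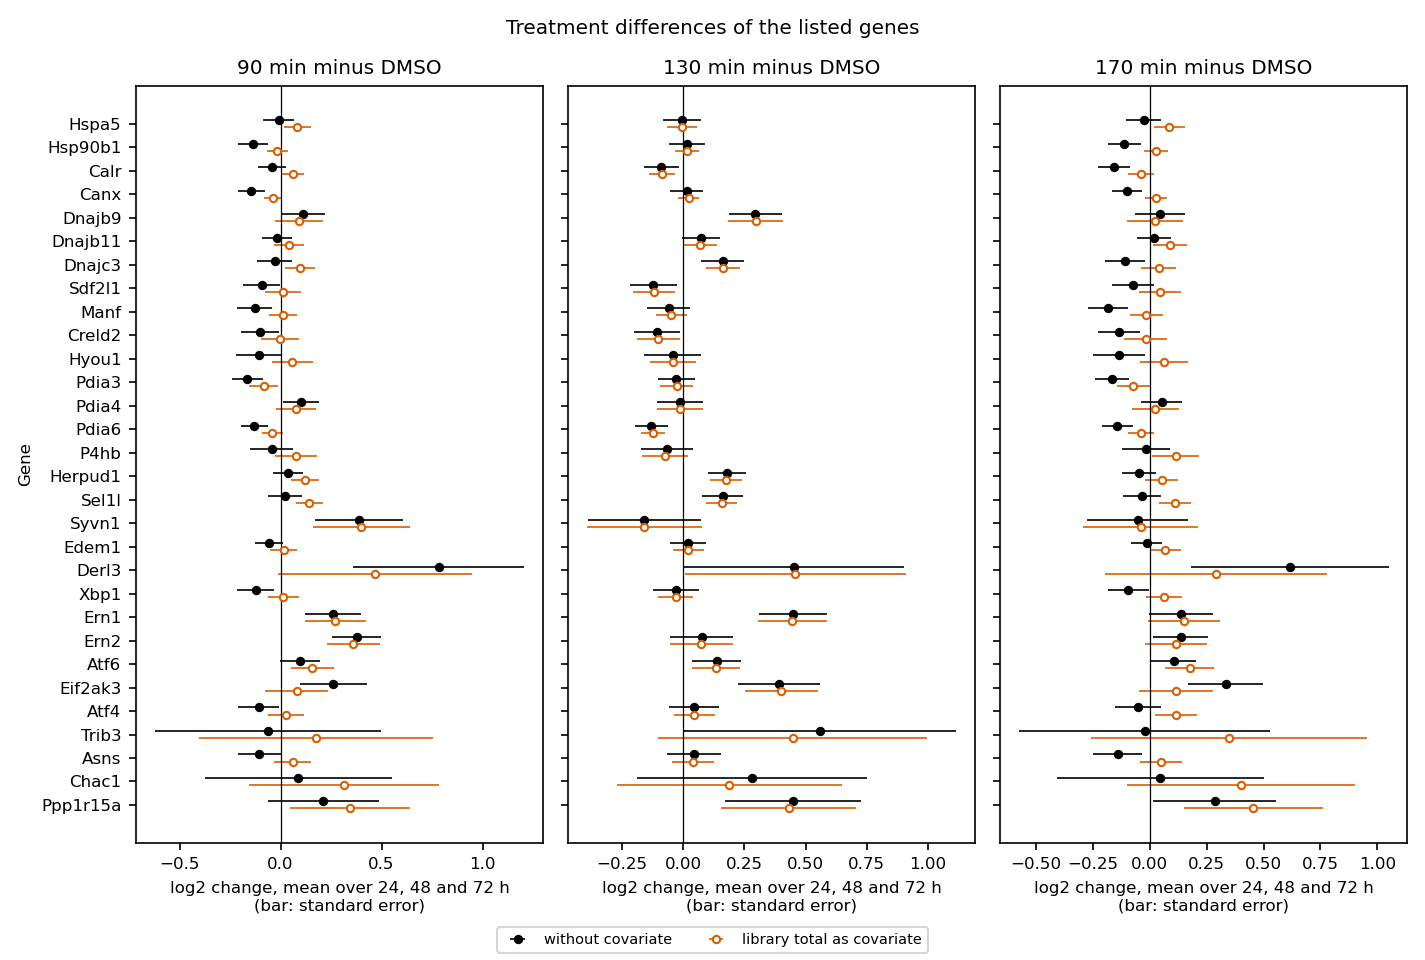
Log2 difference from DMSO of each of the 30 genes for pulses of 90, 130 and 170 min, averaged over 24, 48 and 72 h, with bars of 1 standard error, without (black) and with (open orange) the library total as a covariate. With the covariate the points of the 90 and 170 min panels shift to the right, to 25 and 24 genes above 0, and 0 genes pass the adjusted threshold in any panel.

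Between periods, 170 min against 130 min had 5 of 30 members at an unadjusted p under 0.05, against 12% of all tested genes, and all 5 were lower at 170 min. Dnajc3 differed by -0.27 (SE 0.09, adjusted p = 0.271 in edgeR and 0.0747 in DESeq2) and Herpud1 by -0.22 (SE 0.08, adjusted p = 0.271 in edgeR). Sel1l, Dnajb9 and Ern1 differed by -0.20 (SE 0.08), -0.25 (SE 0.11) and -0.31 (SE 0.13). The estimates were below 0 for 24 of 30 members (median -0.08), and with the library total in the model for 9 of 30 (median 0.04). Dnajc3 was then at -0.12 (SE 0.08).

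For 90 against 130 min 5 members had an unadjusted p under 0.05, against 11.8% of all. Ern2 at 0.30 (SE 0.12) and Syvn1 at 0.55 (SE 0.22) were higher at 90 min, and Canx at -0.16 (SE 0.07), Dnajc3 at -0.19 (SE 0.09) and Hsp90b1 at -0.15 (SE 0.07) lower. For 170 against 90 min, Syvn1 differed by -0.44 and Ern2 by -0.24, against 1.3% of all genes at that p, and the smallest adjusted p in edgeR was 1.00. These comparisons share arms with one another.

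By duration, averaged over the 4 arms, Hsp90b1 and Ern2 had the smallest p-values. At 48 against 24 h Hsp90b1 differed by -0.22 (SE 0.06, adjusted p = 0.324 in edgeR) and Ern2 by 0.35 (SE 0.10, adjusted p = 0.351), and 9.63% of all genes had an unadjusted p under 0.05. With DMSO, Hsp90b1 was at 247.4, 198.5 and 198.6 CPM at 24 h and at 169.3, 175.9 and 177.3 CPM at 48 h, so these groups did not overlap. Their totals were 482741, 802900 and 807127 counts at 24 h and 1193220, 830559 and 828506 counts at 48 h. Hsp90b1 had a slope of -0.38 per doubling of the total within groups. The differences between durations are not given with the total in the model. At 72 against 24 h, where the share was 14.8%, Dnajb9 differed by -0.23 (SE 0.09, adjusted p = 0.240) and Syvn1 by 0.42 (SE 0.19, adjusted p = 0.297) in edgeR. At 72 against 48 h, where it was 12.6%, Creld2 differed by 0.22 (SE 0.08, adjusted p = 0.305 in edgeR), Ern2 by -0.24 (SE 0.10) and Hsp90b1 by 0.14 (SE 0.06). The estimates of the 5 ATF4 genes were all higher at 72 h than at 24 h (median 0.14) and than at 48 h (median 0.20). The 72 h libraries include 130 min 72 h replicate 1, which held the highest level of each of these 5 genes. Their summed level was 896 CPM there, against 376 and 535 CPM in replicates 2 and 3 of that group. These estimates are not given without that library. The durations share their 72 h and 24 h libraries across these comparisons.

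At single durations, each with 3 libraries against 3, Ern1 at 130 min and 24 h was 0.78 (SE 0.25) above DMSO, with an adjusted p of 0.965 in edgeR. Of all genes 4.7% had an unadjusted p under 0.05 there, and 10.3% at 130 min and 72 h. At 72 h Ppp1r15a at 130 min was 1.09 above DMSO (SE 0.47, adjusted p = 0.422 in edgeR). Ppp1r15a was at 22.0, 14.2 and 11.6 CPM with DMSO and at 51.0, 19.4 and 32.9 CPM at 130 min, which overlapped, and without replicate 1 of the 130 min group the difference was 0.71. At 170 min and 24 h, 7 members had an unadjusted p under 0.05, against 12.4% of all. Of these, Manf at -0.38, Pdia6 at -0.29, Calr at -0.28, Pdia3 at -0.29, Creld2 at -0.35 and Canx at -0.24 were below DMSO and Ern1 at 0.51 above. DMSO 24 h replicate 1, the library of lowest total, holds the highest level of Manf, Pdia6, Calr, Pdia3 and Canx. With the library total in the model 0 members had such a p, and 21 were above and 9 below (median 0.08) instead of 7 and 23 (median -0.17). Without the 3 libraries of lowest total 1 member had such a p, with 8 above and 22 below (median -0.11).

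Library total was the one measure with which many members moved past the threshold. In a model with the 12 groups and log2 library total, 16 of 30 members had a slope with an adjusted p under 0.05 (edgeR), 15 lower and 1 higher with a higher total. Of all tested genes 15.9% passed, 13.2% lower and 2.67% higher. The median slope was -0.32 per doubling of the total over the members and 0.08 over all tested genes. With library totals in place of TMM the median over the members was -0.19, and that of all tested genes is not given here. The TMM factor multiplies the total before scaling. It was 0.903, 0.942 and 0.919 in the 3 libraries of lowest total and 1.05 and 1.06 in the 2 of highest. By role, 8 of 11 chaperones, 2 of 4 isomerases, 2 of 5 degradation genes, Xbp1 among the 5 sensors and factors, and Atf4 and Asns in the ATF4 group were called lower.

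The steepest calls among the chaperones were Hyou1 at -0.53 (SE 0.13), Manf at -0.42 (SE 0.08) and Dnajc3 at -0.41 (SE 0.09) per doubling. Hsp90b1 at -0.38 (SE 0.07, adjusted p = 1.92e-04 in edgeR) and Canx at -0.33 (SE 0.06, adjusted p = 2.03e-04) had the smallest p-values. Hspa5 fell by 0.30 per doubling (SE 0.08, adjusted p = 0.00962 in edgeR), Xbp1 by 0.42 (SE 0.10, adjusted p = 0.00281) and Asns by 0.53 (SE 0.12, adjusted p = 0.00149). Sel1l was at -0.40 (SE 0.09) and Atf4 at -0.45 (SE 0.11). Trib3 and Chac1 had estimates of -1.05 (SE 0.76) and -0.92 (SE 0.61) and did not pass.

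Eif2ak3 was the member called higher, at 0.64 (SE 0.21, adjusted p = 0.0309 in edgeR). The call was lost with the replicate number as a block, and without DMSO 24 h replicate 1, DMSO 48 h replicate 1, 130 min 24 h replicate 2, 130 min 72 h replicate 1 or 170 min 24 h replicate 1. The number called lower was 5 when all libraries of replicate 1, 2 or 3 were left out and 9 without the 3 libraries of lowest total.

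The slope also went with abundance over the whole table. Among the 3642 genes at 100 CPM or more the median slope was -0.24, 91.6% of slopes were below 0 and 41.5% were called lower. Among 5669 genes of 20 to 100 CPM the median was 0.19 and 0.0882% were called lower, and among 2151 genes under 20 CPM the median was 0.43. Of the members, 19 were at 100 CPM or more, all 19 had a slope below 0 (median -0.34) and 15 were called. The 10 members of 20 to 100 CPM had a median of -0.04 with 0 called lower, beside 0.0639% of all genes under 100 CPM. The part of abundance in the members' slopes was not tested.

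**Figure D4:**
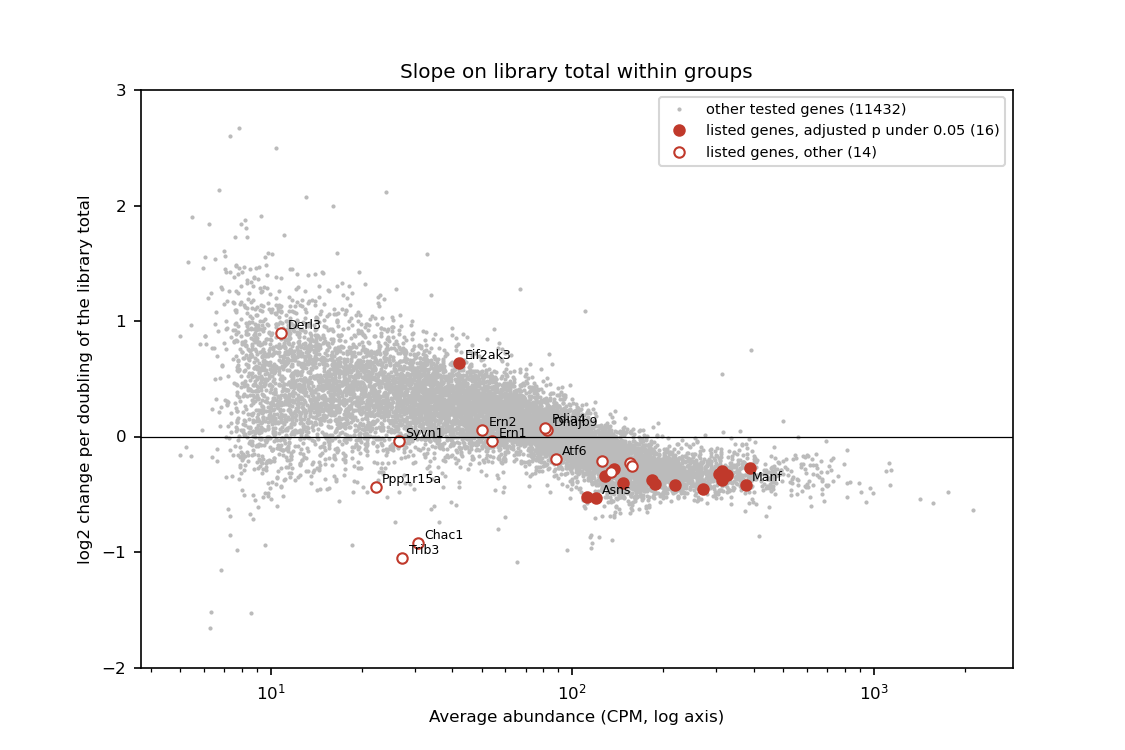
Slope of each tested gene on the library total within groups (vertical axis, log2 change per doubling of the total) against average abundance (CPM, log axis), with 11432 other tested genes in grey and the 30 listed genes in red, filled where the adjusted p is under 0.05. The filled points lie at 100 CPM or more and below 0 except Eif2ak3, and 4 other genes fall outside the plotted slopes.

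The levels at the lowest totals show the same in single libraries. Of 30 members, 23 (76.7%) had their highest level in 1 of the 3 libraries of lowest total, beside 27.8% of all tested genes and 64.1% of those at 100 CPM or more. DMSO 24 h replicate 1, highest for 12.1% of all genes, held the highest level of Hsp90b1, Calr, Canx, Manf, Pdia3 and Pdia6. In 130 min 24 h replicate 3 (9.54% of all genes) it was Dnajb11, Dnajc3, Sdf2l1, Hyou1, P4hb, Herpud1, Sel1l, Edem1 and Xbp1. In 130 min 72 h replicate 1 it was Hspa5, Ern1, Atf6 and the 5 ATF4 genes. So the library with the most Manf, Pdia6 and calnexin mRNA was near the median for Ppp1r15a and lowest for Ern1 (32.4 CPM) and Eif2ak3, and the one with the most Trib3 was lowest for Sdf2l1. In the same 3 libraries 0 of 10 goblet, 0 of 9 enteroendocrine and 1 of 9 Paneth markers had their highest level. So did 8 of 8 tested enterocyte, 6 of 7 proliferation and 4 of 6 crypt stem cell markers. The enterocyte sum was 4874 CPM in 130 min 24 h replicate 3. It was 2462 CPM in DMSO 24 h replicate 1 and 2115 CPM in 130 min 72 h replicate 1, within a range of 616 to 4874 CPM. The share of mitochondrial counts was 0.867 to 1.48% over the libraries. It was highest, 1.48%, in DMSO 24 h replicate 1, was 1.37% in 130 min 72 h replicate 1, and was 0.923% and 0.894% in the 2 libraries of highest total. Its part in the members' levels was not tested.

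**Figure D5:**
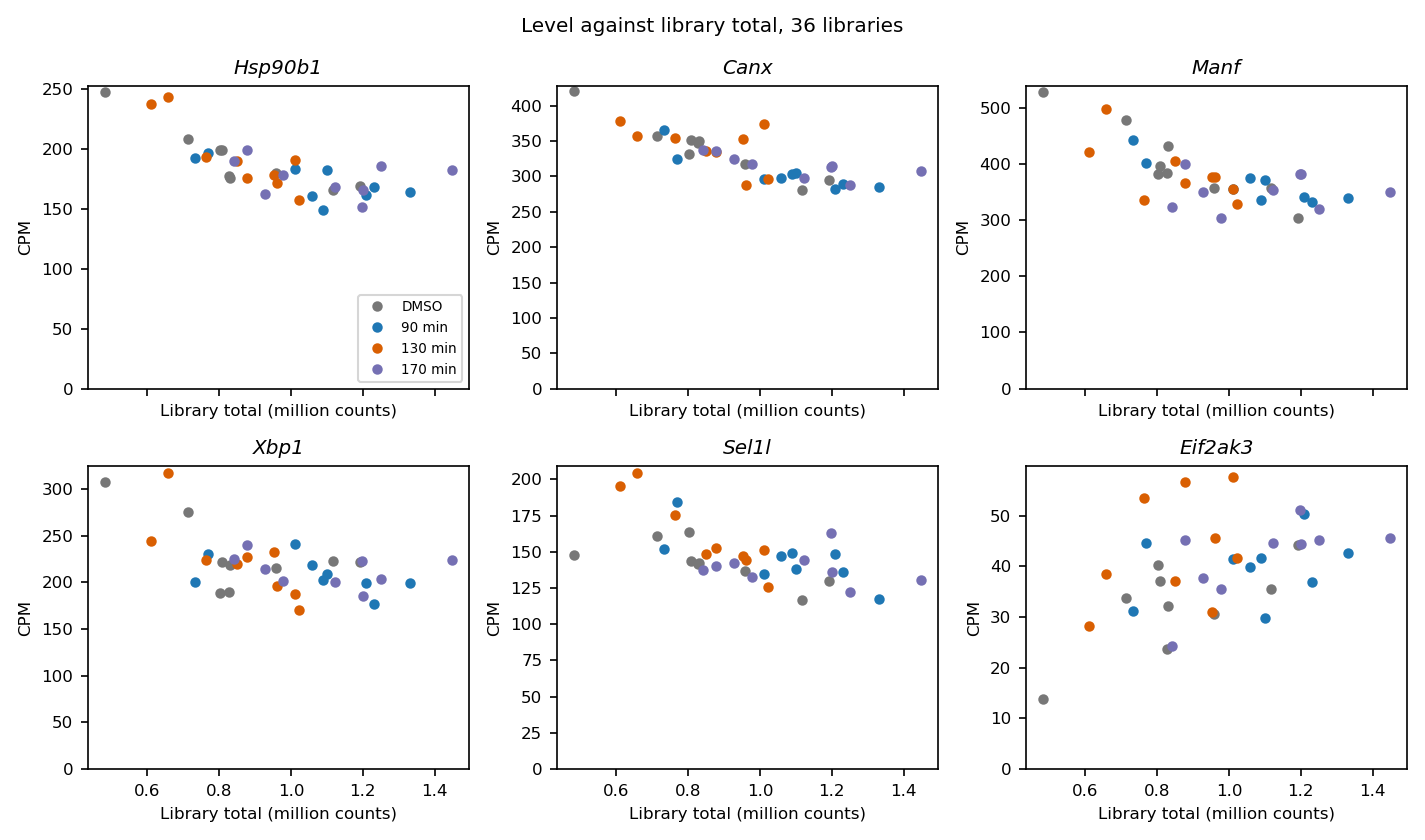
CPM of Hsp90b1, Canx, Manf, Xbp1, Sel1l and Eif2ak3 in the 36 libraries (points coloured by treatment) against the library total. The first 5 genes are lower at higher totals in all arms together, and Eif2ak3 has its lowest point, 13.9 CPM, at the lowest total.

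Other ER and stress genes were read from wider lists beside the members. In the comparisons of treatments and periods, 0 genes of the 7 wider lists were called by edgeR. At an unadjusted p under 0.05 stood, for example, 2 of 22 translocon and glycosylation genes at 90 min, 0 at 130 min and 5 at 170 min, all below DMSO, and 1 of 24 wider ATF4 genes at 130 min, Atf3 at 0.70 (SE 0.30) above DMSO. Of all tested genes 7.92%, 5.49% and 8.64% had such a p at 90, 130 and 170 min. DESeq2 was not read for these lists. With library total, 13.2% of all tested genes were called lower and 2.67% higher, and of those at 100 CPM or more 41.5% were called lower. Of 22 genes of the translocon and of N-glycosylation 17 were called lower, among them Ssr1 at -0.48, Rpn1 at -0.43, Stt3b at -0.32 and Ssr3 at -0.45 per doubling. So were 4 of 20 other ER folding enzymes (Dnajc10, Erp44, Erp29 and Ganab), the further degradation genes Vcp and Derl1, and 4 of 13 proteases and factors of the response (Eif2s1, Mbtps1, Ppp1r15b and Creb3l1). Of the 24 wider ATF4 genes 7 were called lower, among them Shmt2 and Slc7a1, and of 13 aminoacyl-tRNA synthetases 9, among them Gars and Eprs. In the cytosol, whose heat shock proteins answer to another regulator, HSF1, 5 of 11 genes were called lower, with Hspd1 at -0.62, and Bag3 was called higher, at 0.62.

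Gdf15, a secreted stress factor on the wider ATF4 list, was the gene of these lists called in a comparison of durations. With 130 min pulses it was at 6.43, 21.2 and 18.4 CPM at 24 h, 32.9, 35.8 and 17.9 CPM at 48 h, and 58.1, 61.1 and 48.0 CPM at 72 h. All 3 libraries at 72 h lay above all 6 at 24 and 48 h. The difference of 72 from 24 h was 1.87 (SE 0.35, adjusted p = 0.0254 in edgeR), where 0.209% of all tested genes passed. Without replicate 2 of the 72 h group the adjusted p was 0.228, without replicate 1 or 3 of the 24 h group 0.0600 and 0.0577, and without the 3 libraries of lowest total 0.105. Averaged over the 4 arms Gdf15 was 0.77 higher at 72 h (SE 0.17, adjusted p = 0.0501 in edgeR).

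The members were also followed with each other and with the secretory cell markers, in models with the 12 groups. With the log2 level of Hspa5, 25 of the 29 other members had slopes above 0 and 17 had an unadjusted p under 0.05, all positive, against 11.7% of all genes. The median slope was 0.49 for members and -0.05 for all genes. With edgeR 0 members were called, against 0.0262% of all genes, and with DESeq2 3 were. Sel1l at 0.95 (SE 0.22) and Atf4 at 1.16 (SE 0.27) had an adjusted p of 0.0857 in edgeR, and Xbp1, at 0.99 (SE 0.25), 0.154. With the library total also in the model the median was 0.31 and 8 members had an unadjusted p under 0.05, of which 7 were positive and 1 negative. Without the 3 libraries of lowest total 6 had such a p, all positive. The 11.7% belongs to the first fit, and the shares of all genes in these other fits are not given here. These slopes share the libraries' totals, though the Hspa5 level in the model was scaled without TMM.

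With the summed Paneth markers, 3 members were called lower by edgeR, against 4.67% of all tested genes lower and 3.97% higher. Creld2 was at -0.29 (SE 0.09, adjusted p = 0.0249), Atf4 at -0.30 (SE 0.09, adjusted p = 0.0295) and Syvn1 at -0.65 (SE 0.21, adjusted p = 0.0422) per doubling of the marker sum, and the median of the members was 0.01. All 3 calls were lost with the replicate number as a block, without all libraries of replicate 1 or of replicate 2, without 130 min 72 h replicate 1 or 130 min 24 h replicate 2, and without the 3 libraries of lowest total. With the summed goblet markers 0 members were called by edgeR and 0 by DESeq2, against 0.0698% of all genes. Dnajc3, at 0.48 (SE 0.18), was the 1 member with an unadjusted p under 0.05, against 9.14% of all, and 25 of 30 slopes were above 0 with a median of 0.11. With the replicate number as a block 28 of 30 were above 0, with a median of 0.40, and 11 had an unadjusted p under 0.05, with 0 called. The 9.14% belongs to the fit without the block, and the share of all genes with it is not given here. The median was 0.21 without 130 min 72 h replicate 1, 0.44 without all libraries of replicate 1 and -0.10 without those of replicate 2. With the library total in the model it was 0.02, with 16 above and 14 below.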

How the data were processed

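The deposited values are molecule (UMI) counts, whole numbers for each gene and library, which the authors did not visibly normalize. Libraries were made by Sort-seq, per the labels' protocols. The submitters' processing notes name STAR 2.7.8a and UMI-tools 1.1.1. The build, the annotation and how genes were counted are not given in the sources consulted. All 36 columns matched a sample, with 0 left over.

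Tests used edgeR 4.0.16 in R 4.3.3: filterByExpr (11462 of 34197 genes), TMM, 12 group coefficients with 24 residual degrees of freedom, robust quasi-likelihood F tests, and Benjamini-Hochberg adjustment over all tested genes at 0.05. The biological coefficient of variation was 0.145, and 28 comparisons were fitted. Slope models added log2 library total, the log2 sum of goblet or Paneth markers, or the log2 level of Hspa5, which was added after seeing the data. CPM used TMM-scaled totals, while the marker sums and the Hspa5 level in the slope models were scaled by the library totals alone. At these totals counting error limits members with few counts. Alternatives were library totals in place of TMM, every gene with a count, replicate blocks, covariates, 48 and 72 h alone, leaving out libraries, and DESeq2 1.42.0. Replicate numbers paired the 130 and 170 min arms: the deviations of same-numbered libraries from their group means correlated above 0.1 in 9 of 9 pairs, from 0.24 to 0.59. This comes from the data, since the labels give the numbers no meaning. DMSO and 90 min had 7 of 9 such pairs, and all arms together 24 of 54. The edgeR code was tested on simulated data. For 90 min against DMSO it recovered 25.4% of 67 genes changed 1.25-fold and 58.2% of 67 changed 1.5-fold. Of 66 genes changed 2-fold it recovered 86.4%. Of 200 genes given a slope of -0.4 on library total it recovered 6.5%. Figures used matplotlib 3.10.9.

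All 31 members are named. Per-library values are given for Hspa5, Ern1, Ern2 and the members a result turns on, and up to 4 genes of a wider list past the threshold are named. Of these, 1 is not reported here. The members and lists were chosen with earlier results of these data known. Promoters are RefSeq windows of GRCm38.p6.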

Additional observations from a re-analysis of the deposited data

How the results depend on the processing

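The number of members called stayed at 0 for every comparison of treatments, periods and durations, and for the interaction, under all alternatives run, including each library left out in turn. For slopes on library total, the members called lower went from 15 to 9 with library totals in place of TMM and to 9 without the 3 libraries of lowest total, an alternative chosen after seeing the data, and ranged from 5 to 16 with libraries or replicates left out. The member called higher, Eif2ak3, went from 1 to 0 with every gene with a count, with the replicate block, without the library of lowest total and without the lowest 3, and ranged from 0 to 1 with replicates or libraries left out. For slopes on Paneth markers, the members called lower went from 3 to 0 with the replicate block and without the 3 libraries of lowest total, and ranged from 0 to 3 with libraries left out. Those called higher went from 0 to 1 with every gene with a count and with the library total as covariate (chosen after seeing the data), and ranged from 0 to 1. For slopes on Hspa5, all alternatives were added after seeing the data. Calls went from 0 to 3 with every gene with a count and with DESeq2, and ranged from 0 to 2 with libraries left out. The slope of Sel1l on goblet markers, 0.35, was -0.055 without replicate 2 and 0.88 without replicate 1, the ends of its range with libraries left out. The cause of these changes was not tested.

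With the replicate block in all arms, 15 members had a called slope on library total, of which 14 were among the 16 called without it. With the block in the 130 and 170 min arms alone, chosen after seeing the data, 16 were called, of which 14 were among those 16, and the members called lower with Paneth markers went from 3 to 0. Eif2ak3 was not called under either block, and neither changed a call in comparisons of treatments or periods, nor did replicate number as 1 factor between durations: 170 against 130 min kept 0 called, 6 above and 24 below. Members with few counts, such as Derl3, Syvn1 and Trib3, have the widest errors. The labels give no batch or date, so none could be separated from the groups.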
